A study of Homo sapiens with 10 samples.

Results

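*VEGFA* was followed through all 20 of its RefSeq transcript rows in an RNA-Seq table of 65572 transcript rows, and through the single row that stood for the gene among 13333 tested gene symbols. The rows were taken by their annotation, which had to open with the symbol *VEGFA*, so no expression value entered the choice. All 20 rows had reads and all 20 passed the filter on low values.

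The cells were EA.hy926, an established human line made by fusing umbilical vein endothelial cells with the lung carcinoma line A549. *VEGFA-LNC* is a long noncoding RNA that starts in the first intron of *VEGFA* and is transcribed antisense to it, and *VEGFC-LNC* is a long noncoding RNA near *VEGFC*. Their promoters had been removed with CRISPR/Cas9 and a pair of guides. The 10 libraries came from 3 clones with the *VEGFA-LNC* deletion, 2 *VEGFA-LNC* control libraries, 3 clones with the *VEGFC-LNC* deletion and 2 *VEGFC-LNC* control libraries. Controls had been given the guides without Cas9 and had passed through clonal selection like the deletions, all cells were grown in the same serum-containing medium, and no other agent was named. Each deletion library was 1 clonal line, so a difference between clones holds both the deletion and whatever else set those lines apart. In RNA from a whole culture, fewer cells that express a gene and less RNA per cell cannot be told apart. Which libraries of a group came from separate cultures was not given with the samples, so the p-values below measure the spread between these libraries, which may be technical.

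*VEGFA* encodes a secreted, dimeric growth factor that drives the growth, migration and permeability of endothelial cells. It binds the receptor tyrosine kinases *FLT1* and *KDR* and the neuropilin co-receptors, and its transcription rises in low oxygen. Splicing decides how the protein travels. Exons 6 and 7 encode basic stretches that hold it on heparan sulfate, forms without them diffuse freely, and a second acceptor site in exon 8 gives a protein with another C-terminal end.

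The exons that tell the *VEGFA* rows apart are printed here from GRCh37, the build of the table, on the plus strand of chromosome 6, because the row values turn on them. Exon 5 lies at chr6:43746626-43746655, exon 6a at chr6:43748469-43748540, exon 6b at chr6:43748541-43748591 and exon 7 at chr6:43749693-43749824. Exon 8 is shown only from each acceptor to the stop codon, at chr6:43752278-43752299 and chr6:43752344-43752365. Capitals mark the 18 bases that the short form of exon 6a lacks, the 35 bases that the short form of exon 7 lacks, and the stop codon in exon 8.
exon 5: accaaagaaagatagagcaagacaagaaaa
exon 6a: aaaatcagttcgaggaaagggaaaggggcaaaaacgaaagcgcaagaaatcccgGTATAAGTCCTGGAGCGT
exon 6b: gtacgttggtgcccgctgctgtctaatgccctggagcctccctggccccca
exon 7: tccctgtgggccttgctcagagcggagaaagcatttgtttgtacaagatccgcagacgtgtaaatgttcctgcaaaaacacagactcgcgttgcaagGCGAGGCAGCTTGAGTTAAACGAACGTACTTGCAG
exon 8, first acceptor: atgtgacaagccgaggcggTGA
exon 8, second acceptor: atctctcaccaggaaagacTGA

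The 20 rows had 10 distinct lengths, and each length fitted exactly 1 combination of these exons. In 19 rows the first base was 43737946 and the last 43754223. They began with exon 1, of 1104 bases, and differed in exons 5 to 8 only. The longest, of 3651 bases, held exons 6a, 6b and 7. Rows of 3600 bases held exon 6a without 6b, rows of 3582 bases the short exon 6a, and rows of 3529 bases no exon 6. Exon 7 was short in the rows of 3494 bases and missing from those of 3469, 3398 and 3369 bases, the last of which also lacked exon 5. The rows of 3463 bases used the second acceptor of exon 8. The remaining row, NM_001287044, of 2542 bases, started at 43739722 with an alternative first exon of 117 bases inside intron 1, and otherwise matched the rows of 3529 bases. *VEGFA-LNC* also starts in that intron; where the deleted stretch lies relative to the alternative first exon was not analysed here.

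Because the rows share most of their exons, they share most of their reads. The values are FPKM, reads per kilobase of the row's exons scaled to the reads of the library. FPKM times row length, divided by the value of 1 read in its library, was whole within 0.15 reads for at least 99.97% of the values checked, which let the reads be recovered. The library kit keeps strand, but the strand setting of the counting was not stated. Without it, reads of *VEGFA* and antisense reads of *VEGFA-LNC* in the same bases cannot be told apart. Rows of the same length differed by at most 1 read in any library. The rows are therefore neither separate measurements of *VEGFA* nor estimates of its isoforms.

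NM_001287044 had the highest FPKM of the 20 rows in all 10 libraries, between 1.22 and 1.44 times the lowest row of the same library, and it represented the gene. Its level in the *VEGFA-LNC* controls was 10.2 and 9.62 FPKM, from 450 and 552 reads. In the *VEGFA-LNC* deletion clones it was 4.68, 4.71 and 7.35 FPKM, from 177, 221 and 325 reads. All 3 clones lay below both of their controls, and the third clone lay closer to them than the first and second. In the *VEGFC-LNC* controls the level was 3.23 and 3.84 FPKM, from 78 and 236 reads. In the *VEGFC-LNC* deletion clones it was 8.85, 7.83 and 5.25 FPKM, from 504, 368 and 90 reads. Here all 3 clones lay above both of their controls. The third *VEGFC-LNC* clone and the first *VEGFC-LNC* control were also the shallowest libraries. Their 95% exact Poisson intervals, which cover counting error only, were 4.22 to 6.45 FPKM and 2.55 to 4.03 FPKM and did not meet. The interval of the second *VEGFC-LNC* control, 3.36 to 4.36 FPKM, did meet that of the third clone. Among the tested symbols these levels stood between percentiles 29.5 and 58.3 of their library, so *VEGFA* was a gene of middling abundance in these cells.

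**Figure D1:**
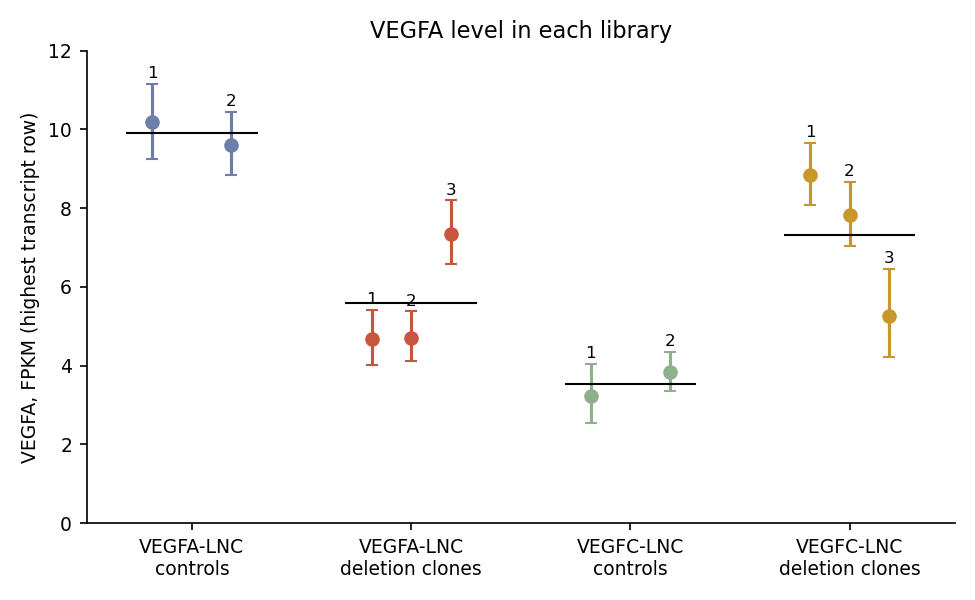
*VEGFA* level in FPKM (NM_001287044) in each of the 10 libraries, by group. Points are libraries with their replicate number, error bars are 95% Poisson intervals of counting error only, and lines are group means, which run from 3.53 FPKM in the *VEGFC-LNC* controls to 9.90 FPKM in the *VEGFA-LNC* controls with all 6 clones between the control pairs.

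The first question was how *VEGFA* stood in clones that lacked the promoter of its own antisense RNA. The clones without *VEGFA-LNC* had a mean of 5.58 ± 1.53 FPKM (SD, n = 3) and their controls 9.90 ± 0.40 FPKM (SD, n = 2), which is 0.564 times the control level. The log2 fold change of FPKM + 0.1 was -0.85 (SE 0.27, 95% interval -1.45 to -0.25), with an FDR of 0.130 in limma's test over all symbols. A gene was called when its FDR was under 0.05 and its change at least 1.5-fold, so *VEGFA* was not called lower. A two-sided exact permutation test of the FPKM values gave p = 0.2, the smallest that 3 clones and 2 controls allow. Relative to the mean of the controls, the clones stood at 0.473, 0.476 and 0.743 times. All 3 clones below both controls is a pattern that 23.7% of all tested symbols shared, against 15.3% with all 3 above.

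The second question was how *VEGFA* stood when the other noncoding RNA, on another chromosome, lost its promoter. The clones without *VEGFC-LNC* had a mean of 7.31 ± 1.85 FPKM (SD, n = 3) and their controls 3.53 ± 0.43 FPKM (SD, n = 2), a ratio of 2.07. The log2 fold change was 1.00 (SE 0.27, 95% interval 0.40 to 1.60, FDR 0.127 in limma's test), and *VEGFA* was not called here either. With *VEGFA-LNC* clone 1 left out, which is no part of this comparison but enters the shared estimate of the spread, the FDR was 0.0437 and *VEGFA* was called. The exact permutation test again gave p = 0.2, the smallest possible. The clones stood at 2.5, 2.22 and 1.49 times the mean of their controls. All 3 clones above both controls was found for 17.2% of the tested symbols, and all 3 below both for 30.6%.

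Both comparisons rest on what their controls measured, and the control pairs differed from each other. *VEGFA* was 0.357 times as high in the *VEGFC-LNC* controls as in the *VEGFA-LNC* controls, with a log2 fold change of -1.46 (SE 0.29, 95% interval -2.12 to -0.81, FDR 0.0172 in limma's test). This was the only one of these comparisons in which *VEGFA* was called, and calls were common there, at 12.7% of all tested symbols. Limma's test assumes the same spread in all 4 groups, so the clones enter this SE and FDR as well. For *VEGFA* the log2 SD was 0.37 and 0.39 in the clones and 0.06 and 0.17 in the controls. The call was lost when any 1 of the 4 control libraries was left out: the FDR was 0.118 without *VEGFA-LNC* control 1, 0.129 without *VEGFA-LNC* control 2, 0.140 without *VEGFC-LNC* control 1 and 0.0942 without *VEGFC-LNC* control 2. Both *VEGFC-LNC* controls lay below both *VEGFA-LNC* controls for *VEGFA* and for 49.2% of the tested symbols. A permutation of 2 against 2 libraries cannot give a p below 0.333, which is the value it gave. The clones of the 2 deletions stood at a log2 difference of -0.38 from each other (*VEGFA-LNC* minus *VEGFC-LNC* clones, 95% interval -0.92 to 0.16), which was not called (FDR 0.358 in limma's test).

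The order of the group means was *VEGFC-LNC* controls, *VEGFA-LNC* clones, *VEGFC-LNC* clones and *VEGFA-LNC* controls, from low to high. No neighbours in this order passed the FDR threshold in limma's test. The *VEGFA-LNC* clones were 0.62 above the *VEGFC-LNC* controls on the log2 scale, with a 95% interval that leaves out 0 (0.015 to 1.22, unadjusted p = 0.0455 and FDR 0.167 in limma's test). The *VEGFC-LNC* clones stood at -0.47 from the *VEGFA-LNC* controls (95% interval -1.07 to 0.14, FDR 0.262). All 6 clones lay between the control pairs, with the *VEGFA-LNC* clones below and the *VEGFC-LNC* clones above their own controls. Of the tested symbols 1.98% showed this pattern, and 4.01% showed the opposite directions of the 2 deletions without regard to where the clones lay. Pooled over deletions, the 6 clones and 4 controls had means of 6.45 and 6.72 FPKM (two-sided exact permutation p = 0.876).

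Whether the deletions differed in their effect was itself tested. The *VEGFA-LNC* effect minus the *VEGFC-LNC* effect was -1.85 on the log2 scale (SE 0.38, 95% interval -2.70 to -1.0), at an unadjusted p of 0.000875 and an FDR of 0.0559 in limma's test, just outside the threshold. An exact permutation within each deletion set, over 100 splits, gave p = 0.02, the smallest it can give. The FDR passed the threshold in 4 of 18 alternatives. These were the fits without *VEGFA-LNC* clone 1 (0.0394), *VEGFA-LNC* clone 3 (0.0453) or *VEGFC-LNC* clone 3 (0.0334), and limma's voom method on the recovered reads (0.0424). In the other 14 the FDR did not pass, among them the replicate block (0.0974), the longest row (0.0738) and median-of-ratios scaling (0.0520). Over all 18 alternatives it ran from 0.0334 to 0.877.

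The single rows, which share most of their reads, gave values close to those of the gene. The row that represents the gene, NM_001287044, had the largest log2 fold change and the lowest FDR of the 20 in every comparison below. With each symbol represented by its longest row, the FDR of the difference between the effects was 0.0738 in limma's test, beside 0.0559. In the fit over all 40619 tested rows, 0 of the 20 *VEGFA* rows were called in the *VEGFA-LNC* comparison, where 3.1% of all rows were called. Their log2 fold changes ran from -0.85 to -0.77, and all 20 had an unadjusted p under 0.05 in limma's test. In the *VEGFC-LNC* comparison, where 0.473% of all rows were called, 0 of 20 were called, with log2 fold changes of 0.92 to 1.00 and again 20 unadjusted p under 0.05. Between the control pairs all 20 rows were called, at -1.46 to -1.42, beside 12.8% of all rows. For the difference between the effects 1 of the 20 rows was called, NM_001287044 with an FDR of 0.0460 in limma's test, beside 1.84% of all rows. With the replicate number as a block, 0 of 20 were called there. In all 20 rows the 6 clones lay between the control pairs.

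Across rows, the longest, NM_001025366, gave 3.63, 3.86 and 6.03 FPKM in the *VEGFA-LNC* clones and 7.81 and 7.57 FPKM in their controls. In the *VEGFC-LNC* clones it gave 7.0, 5.90 and 3.86 FPKM, and in their controls 2.60 and 2.99 FPKM. Within each group the libraries stood in the same order as for NM_001287044. The rows that start with exon 1 lay within a narrow band in each library, and the step up came with the row that has the alternative first exon.

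**Figure D2:**
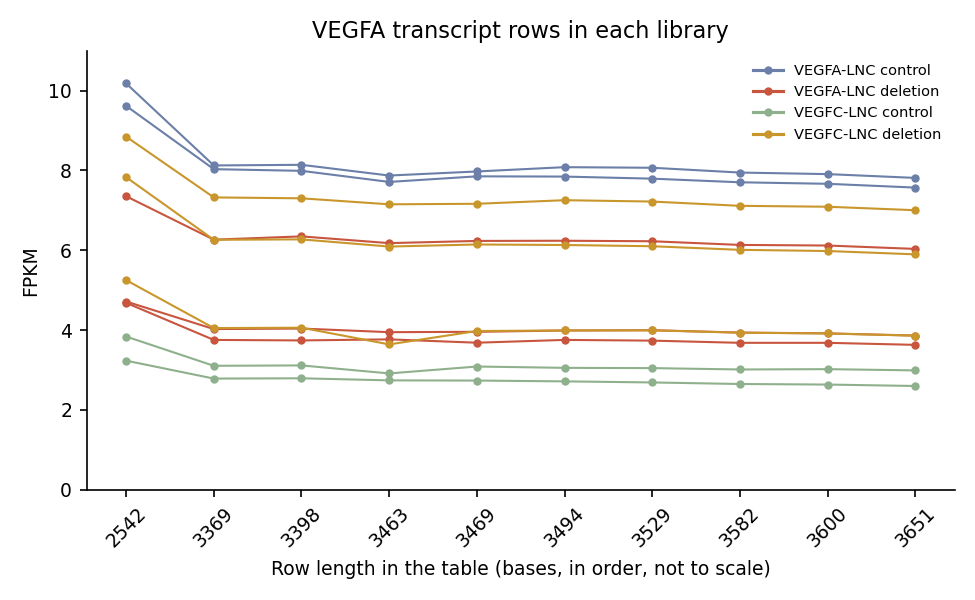
FPKM of the *VEGFA* rows in each library, 1 line per library and 1 row per length, ordered by length in bases. The lines are nearly flat from 3369 to 3651 bases and step up at the row of 2542 bases in every library.

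Differences between nested rows gave the reads that fell in single exons. These were few, since most of the exons are shorter than a sequencing read. They were expressed per base, relative to a reference part of 2316 bases, which held 2793 reads over the 10 libraries. The reference part is NM_001287044 outside exons 5 and 7 and the start of exon 8, so it holds exons 2 to 4 and the rest of exon 8, which all rows share, and also the alternative first exon, which no other row has. The first exons could not be separated in this way, because no row lies within another that differs only by them. The rows of 3529 bases had 367 reads more than NM_001287044 in all and are 987 bases longer. This is the number of exon 1 reads less that of the alternative first exon, a ratio of 0.308 per added base. It accounts for the step between NM_001287044 and the longer rows, but gives the coverage of neither first exon and does not measure use of the alternative one.

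The exons that hold *VEGFA* on heparan sulfate were covered unequally. Exons 6a and 6b together held 12 reads in 10 libraries, a ratio of 0.0816 (95% interval 0.0421 to 0.142), with 8 reads in 6a and 4 in 6b. Exon 7 held 68 reads, a ratio of 0.430 (0.334 to 0.546). The 2 pairs of rows that differ by exon 7 gave the same 68, but they count the same reads, so this is no further measurement. The upper limit for exon 6 lay below the lower limit for exon 7. Exon 5, which all but the shortest exon 1 rows contain, held 31 reads at a ratio of 0.886 (0.602 to 1.26). The first 66 bases of exon 8, which only the first acceptor includes, held 109 reads at a ratio of 1.37 (1.12 to 1.65), so the first acceptor was in use. The form with the second acceptor has no bases of its own, and its share could not be read from these rows. The intervals cover counting error only.

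The exon reads of single libraries were few. Exon 7 reads numbered 7, 7 and 7 in the *VEGFA-LNC* clones, 14 and 8 in their controls, 15, 4 and 2 in the *VEGFC-LNC* clones, and 0 and 4 in their controls. Its ratio was 0.498 ± 0.186 (SD, n = 6) in the clones and 0.301 ± 0.248 (SD, n = 4) in the controls, a difference of 0.197 (two-sided exact permutation p = 0.181). Exons 6a and 6b had 1, 0 and 1 reads in the *VEGFA-LNC* clones, 1 and 3 in their controls, 2, 0 and 0 in the *VEGFC-LNC* clones, and 0 and 4 in their controls. Libraries at 0 reads occurred among clones and controls alike. The first part of exon 8 held between 0 and 21 reads per library, and its ratio was 1.59 ± 1.5 (SD, n = 6) in the clones and 1.41 ± 1.11 (SD, n = 4) in the controls (exact permutation p = 0.943). The difference of the first exons had a ratio of 0.388 ± 0.105 (SD, n = 3) in the *VEGFA-LNC* clones and 0.283 ± 0.036 (SD, n = 2) in their controls, and of 0.229 ± 0.094 (SD, n = 3) in the *VEGFC-LNC* clones and 0.315 ± 0.072 (SD, n = 2) in theirs (exact permutation p = 0.4 for each). Of the 15 comparisons, of 5 measures in 3 contrasts, only the 5 of 6 clones against 4 controls could reach a p under 0.05, and the lowest of them was the 0.181 of exon 7 (Benjamini-Hochberg adjusted p 0.667 over all 15, from exact permutation). The other 10 set 3 libraries against 2, where an exact permutation test cannot go below p = 0.2, and say nothing either way. With so few reads and libraries, the data neither show a difference in exon use nor set it aside.

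**Figure D3:**
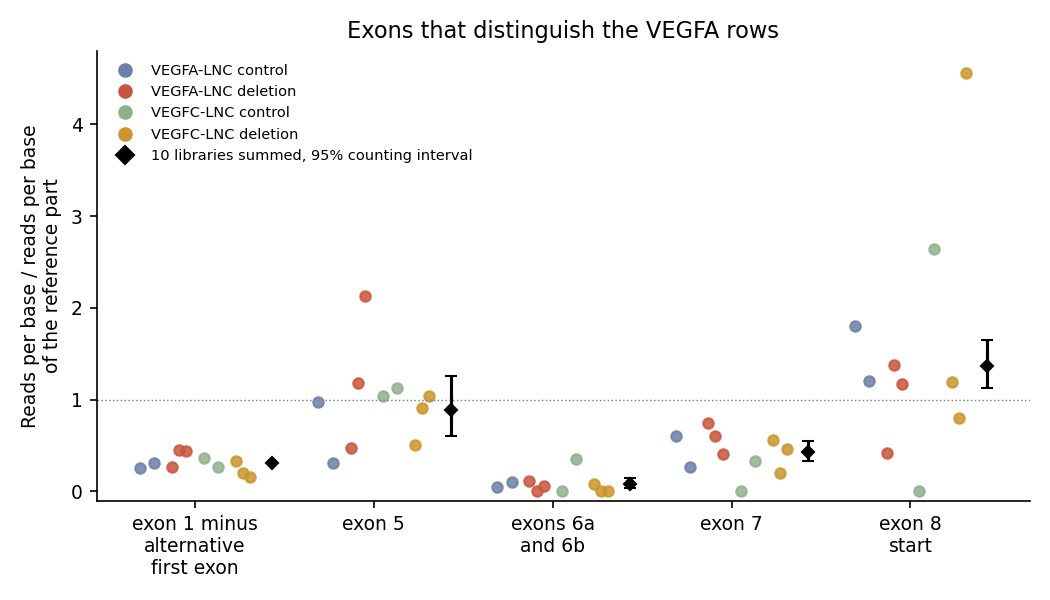
Reads per base in the exons that distinguish the *VEGFA* rows, divided by reads per base in the reference part of 2316 bases, for each library by group (points) and for the 10 libraries summed with the 95% counting interval (black). Exons 6a and 6b lie near 0, at 0.0816 in the sum, exon 7 at 0.430 and the start of exon 8 at 1.37. The leftmost column is a difference of 2 first exons and has no interval.

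Other VEGF ligands were read beside *VEGFA*. The list of ligands had 3 tested genes, and *VEGFD* stayed at or below 0.257 FPKM. *VEGFC*, the lymphatic ligand whose neighbour *VEGFC-LNC* is, was at 5.38, 4.84 and 4.63 FPKM in the *VEGFC-LNC* clones and at 9.47 and 10.5 FPKM in their controls. It fell by 1.00 on the log2 scale (SE 0.12, FDR 0.0145 in limma's test) and was called, where 0.473% of all symbols were. In the *VEGFA-LNC* clones *VEGFC* was at 11.6, 11.4 and 10.8 FPKM against 16.1 and 16 FPKM, a log2 fold change of -0.51 (FDR 0.0666), which was not called. The control pairs differed for *VEGFC* as well. With a pseudocount of 1 it was called lower in the *VEGFC-LNC* than in the *VEGFA-LNC* controls (-0.64, FDR 0.0144 in limma's test), as 1 of 1544 called among 13333 tested symbols. Of the 3 tested ligands, 1 was called lower there under the main settings too, beside 12.7% of all symbols. With median-of-ratios scaling 0 were called. *VEGFB*, a ligand of *FLT1*, had log2 fold changes of 0.35 (FDR 0.249) and 0.48 (FDR 0.174) in the *VEGFA-LNC* and *VEGFC-LNC* comparisons. *PGF*, placental growth factor, had 0.63 (FDR 0.664) and 1.59 (FDR 0.256). Neither was called in limma's test, and *PGF* ran from 30.9 to 205 FPKM among the *VEGFA-LNC* clones alone.

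The receptors were present at unequal levels, and 0 of the 4 tested were called in either deletion comparison in limma's test, with 1 and 0 at an unadjusted p under 0.05. With 2.75% and 0.473% of all symbols called, a count of 0 in 4 genes says little. *KDR*, the main signalling receptor, was near the bottom of the range, at 0.036 to 1.39 FPKM over the 10 libraries. Its highest levels were in the second clones, at 1.39 and 1.33 FPKM, and its log2 fold changes were 1.37 (95% interval -1.17 to 3.92) and 1.59 (-0.95 to 4.14). *FLT1*, the high-affinity receptor that also acts as a decoy, ranged from 7.90 to 24.1 FPKM, with log2 fold changes of 0.19 and -0.09. The co-receptors *NRP1* and *NRP2* ranged from 23.5 to 40.1 FPKM and from 11.3 to 51.5 FPKM. *FLT4*, the receptor of *VEGFC*, stayed at or below 0.026 FPKM. These FPKM values are levels per length of different rows, so only their broad order is meant.

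Of 34 tested genes of VEGF signalling, 1 was called in each deletion comparison, and it was *RCAN1* in both. That is 2.94%, beside 2.75% of all symbols in the *VEGFA-LNC* and 0.473% in the *VEGFC-LNC* comparison, and 3 of 34 (8.82% beside 12.7%) were called between the control pairs. *RCAN1* is an inhibitor of calcineurin whose transcription rises when VEGF activates calcineurin and NFAT. It was at 10.4, 9.14 and 10.8 FPKM in the *VEGFA-LNC* clones against 39.8 and 38.1 FPKM in their controls. In the *VEGFC-LNC* clones it was at 21.5, 13.5 and 20.4 FPKM against 5.75 and 5.97 FPKM. *RCAN1* fell by 1.94 on the log2 scale (SE 0.20, FDR 0.00377 in limma's test) in the first set and rose by 1.61 (SE 0.20, FDR 0.0142) in the second. Its control pairs differed by -2.71 (*VEGFC-LNC* minus *VEGFA-LNC* controls, FDR 0.00137), and its difference between effects, -3.55 (FDR 0.00251), was called. As for *VEGFA*, all 6 clones lay between the control pairs. The median log2 fold change of the signalling list was -0.09 in the *VEGFA-LNC* and -0.07 in the *VEGFC-LNC* comparison, beside -0.06 and -0.09 over all symbols.

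**Figure D4:**
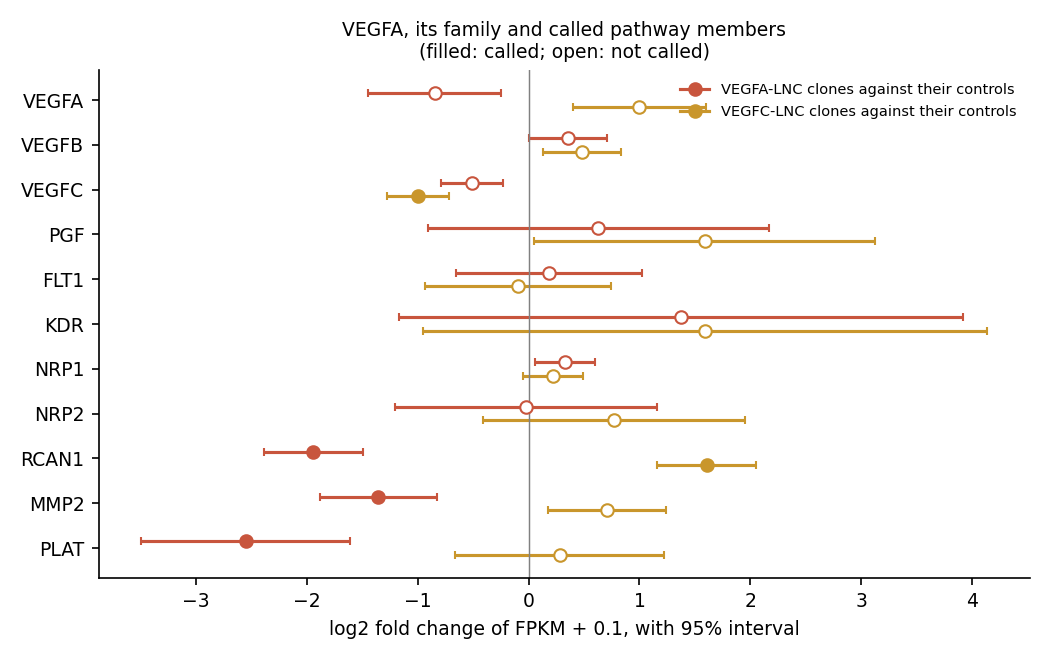
Log2 fold change of FPKM + 0.1 with its 95% interval for *VEGFA*, the other tested VEGF ligands, the tested receptors and the called members of the other lists, in the *VEGFA-LNC* and *VEGFC-LNC* clones against their own controls. Filled points were called, which holds for *RCAN1* in both comparisons, for *MMP2* and *PLAT* in the *VEGFA-LNC* comparison and for *VEGFC* in the *VEGFC-LNC* comparison, while *VEGFA* lies at -0.85 and 1.00, open in both.

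Genes that bind *VEGFA* in the matrix or release it gave 2 called members of 18 tested in the *VEGFA-LNC* comparison, both lower, where 2.75% of all symbols were called. *PLAT*, tissue plasminogen activator, was at 85.3, 174 and 143 FPKM in the clones against 735 and 771 FPKM in the controls, and fell by 2.55 on the log2 scale (SE 0.41, FDR 0.0208 in limma's test). *MMP2*, a gelatinase that cleaves matrix proteins, was at 35.6, 49.8 and 38.8 FPKM against 107 and 102 FPKM, and fell by 1.35 (SE 0.23, FDR 0.0253). The list's median log2 fold change was -0.23, beside -0.06 over all symbols. In the *VEGFC-LNC* comparison 0 of 18 were called, with 5 at an unadjusted p under 0.05 in limma's test, and the median was 0.50 beside -0.09. The control pairs differed more, with 17 of 18 genes lower in the *VEGFC-LNC* controls, 4 of them called (22.2% beside 12.7%), and a median of -0.81 beside -0.11. With a pseudocount of 1 *PLAT* was among the genes called lower there (-1.68, FDR 0.0420 in limma's test), and *MMP2* was not. For the difference between the effects 3 of 18 were called, all on the lower side, where 1.46% of all symbols were. They were *MMP2*, the sulfatase *SULF2* and the matrix protein *THBS1*, the last 2 named after their values were seen, and *SULF2* stayed at or below 0.842 FPKM.

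The genes that act on *VEGFA* itself gave no calls in the deletion comparisons under the main settings. With 2.75% and 0.473% of all symbols called there, 0 calls in lists of 15 or 16 genes say little. The share of all symbols at an unadjusted p under 0.05 is not given here. In the list of oxygen sensing and *VEGFA* transcription 0 of 16 tested genes were called in either comparison in limma's test, with 3 and 2 at an unadjusted p under 0.05, and *EGLN3*, an oxygen-dependent hydroxylase, was at or below 0.020 FPKM. Its medians were -0.0010 and 0.04. With a pseudocount of 1 a single gene of it, the immediate early factor *EGR1*, named here after its values were seen, was called in the *VEGFA-LNC* comparison, at a log2 fold change of -1.91 (FDR 0.0303). Among splicing and polyadenylation factors 0 of 15 were called, with 3 and 6 at an unadjusted p under 0.05, and the medians were -0.09 and -0.48. Among factors of mRNA stability and translation 0 of 16 were called, with 2 and 5, and the medians were 0.20 and -0.44. Over all lists 3 of 106 tested genes were called in the *VEGFA-LNC* comparison, 2.83% beside 2.75% of all symbols, and 2 in the *VEGFC-LNC* comparison, 1.89% beside 0.473%. Between the control pairs it was 13 of 106, or 12.3% beside 12.7%. Of the 16 genes of mRNA stability and translation, 3 were called there, all higher in the *VEGFC-LNC* controls, with a median of 0.47 beside -0.11 over all symbols. They were *HNRNPD*, which binds AU-rich elements, at 65.2 against 34.7 FPKM, *HNRNPA2B1* at 173 against 73.3 FPKM, and *HNRNPA1*, which has many near-identical copies in the genome and whose reads are uncertain. These 3 were named after their values were seen.

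Around *VEGFA* on chromosome 6, 37 other tested symbols lay within 1 Mb of its rows. Of these 1 was called in the *VEGFA-LNC* comparison and 0 in the *VEGFC-LNC* comparison in limma's test, with 6 called between the control pairs. These are 2.70% and 16.2% of the 37 in the first and last comparison, beside 2.75% and 12.7% of all symbols. The called gene was *KLHDC3*, a substrate receptor of a ubiquitin ligase, named after its values were seen, at a log2 fold change of 0.64 (FDR 0.0382). The nearest tested neighbours encode mitochondrial ribosomal proteins. *MRPS18A*, 82397 bases before *VEGFA*, had log2 fold changes of 0.20 (FDR 0.521) and -0.20 (FDR 0.479), and *MRPL14*, 326968 bases after it, had 0.01 (FDR 0.980) and -0.09 (FDR 0.770).

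Likeness to *VEGFA* was described by Pearson's correlation of log2(FPKM + 0.1) over the 10 libraries, among 11754 symbols with a mean of at least 1 FPKM. The points share libraries and fall into groups and close control pairs, so the values describe a pattern and carry no p. The 5 highest were *SARS*, a seryl-tRNA synthetase (r = 0.96), *CHAC1*, which degrades glutathione (0.96), *XBP1*, a transcription factor of the unfolded protein response (0.95), *ATP6V0D2*, a proton pump subunit (0.94), and *C19orf25* (0.93). *CHAC1* was at 2.34, 1.92 and 3.10 FPKM in the *VEGFA-LNC* clones, 7.90 and 7.28 FPKM in their controls, 5.34, 6.18 and 1.66 FPKM in the *VEGFC-LNC* clones, and 1.04 and 0.815 FPKM in theirs. As for *VEGFA*, the *VEGFA-LNC* controls were highest and the *VEGFC-LNC* controls lowest, an order largely set by choosing genes on this correlation. The 5 lowest were *GLI3*, a Hedgehog pathway transcription factor (-0.97), *ANAPC4*, a subunit of the anaphase-promoting complex (-0.94), *YWHAZ*, an adaptor protein (-0.94), *KNOP1* (-0.93) and *RALY*, an RNA-binding protein (-0.93). Of the symbols compared, 11 (0.0936%) had r over 0.9 and 14 (0.119%) had r under -0.9.

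The libraries held between 6743954 and 24197619 recovered reads, the fewest in *VEGFC-LNC* clone 3 and *VEGFC-LNC* control 1. Of 10 endothelial markers 9 were tested, with a summed level of 391 to 1088 FPKM and group means of 713, 600, 832 and 544 FPKM in the *VEGFA-LNC* clones, their controls, the *VEGFC-LNC* clones and their controls, and *CLDN5* was under 0.5 FPKM in every library. Of 6 markers of the A549 parent 2 were tested, and *KRT19*, *CDH1* and *SFTPB* were under 0.5 FPKM in every library. The summed level ran from 197 to 785 FPKM, with group means of 477, 569, 281 and 655 FPKM in the same order. With only 2 of the 6 past the filter on low values, at most 2 of the remaining *KRT8*, *KRT18* and *EPCAM* carried almost all of it. The sum therefore does not stand for the list as a whole, and the levels of single markers are not given here. The part of either list in the *VEGFA* differences was not tested. Fibroblast and blood markers summed to at most 0.441 FPKM. The spread of *VEGFA* among clones, a log2 SD of 0.37 in the *VEGFA-LNC* and 0.39 in the *VEGFC-LNC* clones, stood beside median SDs of 0.29 and 0.25 over all symbols, while the controls had 0.06 and 0.17 beside 0.06 and 0.06.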

How the data were processed

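Total RNA from 10 EA.hy926 libraries was depleted of rRNA, made into strand-specific libraries and sequenced as single-end reads. According to the submitters' processing notes and the methods, reads were trimmed with Trim Galore 0.4.4 and aligned to GRCh37 with STAR 2.5.4b. The values deposited by the authors are FPKM, in 1 table whose rows are RefSeq transcripts, with the length and hg19 position of each row. The methods name featureCounts with GENCODE genes for these libraries, whereas this table holds RefSeq rows in the layout of HOMER. The program behind it, its strand setting and the read position it counted are not given in the sources used here, and the length of a row is short of its exons by 1 base for each exon and 2 bases more.

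Reads were recovered as whole multiples of the value of 1 read. At least 99.97% of the values checked in each library were whole within 0.15 reads, and the libraries held 6743954 to 24197619 reads. The 42 rows that name no gene held at most 0.0347% of the summed reads and were left out. A symbol was represented by its row with the highest mean FPKM, and 13333 of 27945 symbols had at least 1 CPM in 2 libraries. Exon structures came from GENCODE release 44 on GRCh37, and exon reads from differences between nested rows.

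Libraries were grouped by their labels. Values were tested as log2(FPKM + 0.1) with limma 3.58.1 in R 4.3.3, as 1 fit of 4 groups with a trended prior variance and 6 residual degrees of freedom. Adjusted p-values are Benjamini-Hochberg FDRs over all tested symbols or rows. Calls needed an FDR under 0.05 and a 1.5-fold change. Fold changes on this scale understate changes of low genes. Single values were compared with two-sided exact permutation tests in scipy 1.17.1. The fit was also run on simulated reads that had the same dispersion in every group. Clones and controls differ in spread here, so that run does not show how the fit performs on these data. The pseudocount, filter, scaling, representing row, method and libraries were varied.

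Replicate numbers were checked for pairing. Deviations from the group means correlated at -0.043 to 0.047 between clones and controls of the same number, and at 0.553, 0.409 and 0.219 between *VEGFA-LNC* and *VEGFC-LNC* clones of the same number. By the rule that every pair must pass 0.1, the clones of the same number passed across deletions, and clones with controls did not. Some clones of different numbers passed 0.1 too. *VEGFA-LNC* clone 2 with *VEGFC-LNC* clone 3 gave 0.263, and *VEGFA-LNC* clone 3 with *VEGFC-LNC* clone 2 gave 0.183. The rule therefore does not show that the numbers pair the clones. The hint comes from the data only, and the replicate block is given where it changes a count. Control libraries of a pair differed by more than sampling noise over all genes and were counted as separate. Their chi-square per symbol was 3.77 (*VEGFA-LNC*) and 1.545 (*VEGFC-LNC*), beside 20.78 to 137.9 between clones of a group. A difference beyond sampling noise does not tell separate cultures from technical repeats.

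The genes and lists were chosen with earlier results of these data known. The named genes were *VEGFA* with its rows, all tested ligands and receptors, up to 4 called members per list, the 5 symbols most and least like *VEGFA*, and its nearest tested neighbours. Any other gene is marked as named after its values were seen.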

Additional observations from a re-analysis of the deposited data

Results flagged for a closer look

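The change of *VEGFA* against its own controls had opposite signs in the 2 deletions, and neither change was called. Relative to the mean of their own controls, the *VEGFA-LNC* clones stood at -1.08, -1.07 and -0.43 on the log2 scale, and the *VEGFC-LNC* clones at 1.32, 1.15 and 0.57. All 3 clones of one kind lay below and all 3 of the other kind above both of their controls, a pattern that 4.01% of the tested symbols shared. The difference of the effects was -1.85 (FDR 0.0559 in limma's test, exact permutation within sets p = 0.02, the smallest possible). It is the sum of -0.38 between the clones of the 2 deletions (*VEGFA-LNC* minus *VEGFC-LNC*) and -1.46 between the control pairs (*VEGFC-LNC* minus *VEGFA-LNC*), of which the second was called. What set the control pairs apart was not tested.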

How the results depend on the processing

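Of 18 alternatives for each *VEGFA* comparison, the direction held in all. *VEGFA* in the *VEGFA-LNC* clones kept its side of the threshold in 18 (log2 fold change -1.06 to -0.74 with 1 library left out), and in the *VEGFC-LNC* clones in 17 (0.85 to 1.22 with 1 library left out). Between the control sets it did so in 13 (-1.58 to -1.34 with 1 library left out), and averaging each control pair ended the call (-1.46, FDR 0.498, in a range of 0.00818 to 0.498 over its alternatives). The difference of the effects ran from -2.06 to -1.69 with 1 library left out and was called with voom (-1.91, FDR 0.0424). With 1 library left out, the *VEGFA* rows called ranged from 0 to 1 in the *VEGFC-LNC* comparison, from 0 to 20 between the control sets and from 0 to 20 for the difference of the effects, where no filter and the replicate block each gave 0. The lone control left in such a fit is assumed to vary like the other groups.

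Calls over all symbols moved more. With 1 library left out they ranged from 6 to 1732 (*VEGFA-LNC* comparison), 5 to 1158 (*VEGFC-LNC* comparison), 33 to 3068 (control sets) and 5 to 694 (difference of the effects), each highest without *VEGFA-LNC* clone 1. The replicate block gave 151, 20 and 86 calls in place of 367, 63 and 194, and changed no call of *VEGFA* as a gene. No filter gave 654 in the *VEGFA-LNC* comparison and 329 for the difference of the effects. Median-of-ratios scaling moved the median of all symbols between the control sets from -0.11 to -0.0043, and the share of calls on the higher side from 23.0% to 39.3%, and from 31.7% to 46.3% in the *VEGFC-LNC* comparison. With a pseudocount of 1 the oxygen sensing list had 1 call in the *VEGFA-LNC* comparison in place of 0. The cause of these changes was not tested.

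Most exon comparisons could not pass with this many libraries under any setting, and some changed sign. The difference of the first exons in 6 clones against 4 controls went to -0.045 on the log2 ratio scale, and from -0.019 to 0.040 with 1 library left out. With 1 library left out exon 5 ran from -0.038 to 0.293 and the start of exon 8 from -0.417 to 0.586 in that comparison. Within the *VEGFA-LNC* set exon 7 ran from -0.016 to 0.318 and exons 6a and 6b from -0.050 to 0.013, and within the *VEGFC-LNC* set exons 6a and 6b ran from -0.330 to 0.027 and the start of exon 8 from -0.453 to 2.18. The 78 to 552 reads of *VEGFA* per library, and 0 to 21 reads in each exon shorter than a read, limit what could be seen.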
